A study of Mus musculus with 36 samples.

Results

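The Th2 cytokine locus and Gata3 were described here by the 88 ATAC-seq peaks, of 71509 in the whole series, whose midpoint lay nearest to the transcription start site (TSS) of Il4, Il5, Il13, Rad50 or Gata3 among protein-coding genes (GENCODE on GRCm39). A peak was also to be taken if it overlapped the body of one of these genes, which added 0 peaks. Of the 88, 18 belonged to the cytokine locus on chromosome 11 (4 to Il4, 5 to Il13, 3 to Rad50 and 6 to Il5) and 70 to Gata3 on chromosome 2. Of the Gata3 peaks, 61 lay outside the gene body and more than 10 kb from its start sites, and are called distal here. Peaks are named by gene and by the distance of their midpoint from the nearest annotated start of any of its transcripts, with + for downstream. A start inside Rad50 sets the distances of its 2 intronic peaks.

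ATAC-seq, in which a transposase inserts adapters into open DNA, was performed on mouse CD4 T cells of spleen in 12 groups of 3 libraries. The groups combined a mouse line (HP1a or HP1g, for the heterochromatin proteins HP1α and HP1γ), a genotype (WT or KO) and a condition (naive, Tconv, or Tconv transferred with Treg). HP1a KO mice came from a floxed allele deleted with CMV-cre, so that the whole animal lacked the protein. HP1g KO mice carried a floxed allele and Cd4-cre, which acts in T cells, while their WT littermates had the floxed allele without the cre. The lines were kept on a mixed genetic background, and young adult littermates were compared, which by the study's methods were male for the sequencing. The labels give no age or sex for a library. Naive cells were CD62L-positive, CD44-low cells from the spleen of the mutant or control mice. For Tconv, such cells were injected into lethally irradiated B6 hosts with B6 and B6D2F1 bone marrow, alone or together with WT Treg expanded ex vivo. They were recovered 3 weeks later and sorted for the donor-reactive Vβ6 receptor and against the Thy1.1 mark of the Treg. In every group with Treg the Treg were WT, so that only the Tconv differed in genotype. The labels do not say whether the 3 libraries of a group came from separate animals, and p-values then measure only the spread between libraries.

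IL-4, IL-5 and IL-13 are the cytokines by which Th2 cells drive antibody class switching, eosinophil responses and barrier immunity, and their genes lie side by side with Rad50, which encodes a DNA repair protein used in every cell. The 3′ part of Rad50 holds the locus control region of the cytokine genes. GATA3 is the transcription factor that commits CD4 T cells to the Th2 fate, binds within the cytokine locus and is also needed in naive and other T cells. HP1 proteins bind histone H3 methylated at lysine 9 and help to keep genes of other lineages silent. The question was how accessible these regions were in each condition and whether loss of HP1a or HP1g altered it.

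The sequences over or next to which the results turn are given first. For 4 of the 5 genes RefSeq (GRCm38.p6) supplied a promoter, and the bases before the start were placed on GRCm39 by an exact match of the sequence. Those of the cytokine genes are shown, 250 bases each and 5′ to 3′ on the gene's strand, with 3 kinds of motif in capitals, searched on both strands and overlapping in none of the windows shown. The GATA motif was searched as AGATAA, then as AGATAG with the other last base, then as TGATAA and as its partner TGATAG. The AP-1 motif was TGANTCA, and ACCACA was taken as the RUNX motif. The windows are chr11:53509493-53509742 (minus strand) for the outer of its RefSeq starts at Il4 and chr11:53525530-53525779 (minus strand) for Il13, which the peaks over their starts cover in full or nearly so. The Il5 window is chr11:53611371-53611620 (plus strand), which no peak overlapped.
Il4: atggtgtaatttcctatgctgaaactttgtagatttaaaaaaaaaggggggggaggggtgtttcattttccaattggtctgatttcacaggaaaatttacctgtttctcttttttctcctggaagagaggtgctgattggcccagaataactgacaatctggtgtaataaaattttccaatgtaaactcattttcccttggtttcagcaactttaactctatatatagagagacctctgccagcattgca
Il13: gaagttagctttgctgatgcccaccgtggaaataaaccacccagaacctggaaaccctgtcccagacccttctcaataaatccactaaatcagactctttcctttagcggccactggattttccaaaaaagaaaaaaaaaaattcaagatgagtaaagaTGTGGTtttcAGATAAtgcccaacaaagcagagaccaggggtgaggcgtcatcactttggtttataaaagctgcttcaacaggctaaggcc
Il5: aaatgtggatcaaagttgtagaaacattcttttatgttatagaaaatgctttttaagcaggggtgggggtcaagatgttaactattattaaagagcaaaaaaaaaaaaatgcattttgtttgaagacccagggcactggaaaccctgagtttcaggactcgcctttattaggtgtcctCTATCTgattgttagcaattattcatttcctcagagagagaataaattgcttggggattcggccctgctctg

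The Il13 window held 1 GATA and 1 RUNX match and the Il5 window 1 GATA match, while these letters did not occur in the outer window of Il4. The window before the inner RefSeq start of Il4 (chr11:53508166-53508415, minus strand), which the Il4 TSS peak also covers and which is not shown, held 1 GATA match. Of 32851 RefSeq promoters, 26.5% held a GATA match, 6.75% an AP-1 match and 14% a RUNX match in the same length. From the Gata3 side, the central 300 bases of the peak at +299.4 kb (GRCm39, chr2:9578981-9579280, plus strand) are shown because it had the smallest p of all members for Tconv against naive in HP1g WT cells. The whole peak at +1003.4 kb (chr2:8874991-8875240, plus strand) is shown because it had the smallest p of all members for HP1g KO against WT with Treg. Both lie between protein-coding genes.
Gata3 +299.4 kb: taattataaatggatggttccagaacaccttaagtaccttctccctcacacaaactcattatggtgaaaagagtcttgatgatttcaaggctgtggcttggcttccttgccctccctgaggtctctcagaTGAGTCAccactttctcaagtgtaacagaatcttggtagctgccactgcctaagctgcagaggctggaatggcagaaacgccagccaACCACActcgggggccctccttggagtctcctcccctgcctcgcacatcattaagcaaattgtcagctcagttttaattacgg
Gata3 +1003.4 kb: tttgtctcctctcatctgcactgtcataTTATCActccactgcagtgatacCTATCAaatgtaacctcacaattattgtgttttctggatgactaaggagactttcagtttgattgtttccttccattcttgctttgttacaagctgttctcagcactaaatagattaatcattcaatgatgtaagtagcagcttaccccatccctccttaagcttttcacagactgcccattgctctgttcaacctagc

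The first held 1 AP-1 and 1 RUNX match and the second 2 GATA matches. In the central 300 bases, 45 of the 88 member peaks held a GATA match (10 of 18 in the locus and 35 of 70 at Gata3), 14 an AP-1 match and 32 a RUNX match. These shares were 51.1%, 15.9% and 36.4%, beside 35.7%, 13% and 30% of all peaks. A match is a run of letters and not a measured binding site.

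The libraries held 1.49 to 96.8 M reads in peaks, where M stands for 1000000. All HP1g libraries held at least 19.4 M, whereas the 6 HP1a libraries of Tconv with Treg held 1.49 to 50.7 M, and the study left out 3 of these (WT replicate 3, KO replicates 2 and 3) for a low share of reads in peaks and weak enrichment at start sites. HP1a results below use the 15 libraries kept. HP1a Tconv with Treg then rest on 2 WT libraries and 1 KO library, which is assumed to vary like the others. Of 8 T cell marker genes 7 had a peak over the TSS, and their summed level was 449 to 1200 counts per 1000000 reads in peaks (CPM, with library sizes scaled by TMM over all 36 libraries) per library. The B cell genes Ms4a1, Cd79a and Cd79b and the mast cell and basophil genes Fcer1a, Cpa3 and Mcpt8 had no peak over their TSS. Whether a change in bulk accessibility came from more cells with open chromatin or from more open chromatin per cell cannot be told apart. The start-site peaks of Cbx5 and Cbx3, the targeted genes, do not check the genotype, since the sources used here do not give the deleted exons.

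Across the 12 groups, the starts of Il4 and Il13 were nearly closed in naive cells and open in Tconv, whereas those of Rad50 and Gata3 were open in every group. At the Il4 TSS (chr11:53507431-53509830, which also covers a coding exon) the mean was 0.274 and 1.12 CPM in HP1g WT and KO naive cells and 0.334 and 0.342 CPM in HP1a WT and KO naive cells. It was 14.9 and 6.88 CPM in HP1g WT and KO Tconv and 10.3 and 12 CPM in HP1a WT and KO Tconv. With Treg it was 7.22 and 2.53 CPM in HP1g WT and KO (3 libraries in each group so far). In the HP1a line with Treg the 2 WT libraries kept had 4.66 and 4.28 CPM and the KO library kept 2.35 CPM, whereas the WT library left out had 4.53 CPM and the KO libraries left out 10.55 and 8.92 CPM, so that KO was below WT in the libraries kept and the KO mean above the WT mean with all of them. On the log2 CPM scale HP1g WT Tconv were highest (3.84 ± 0.52, SD, n = 3), followed by HP1a KO Tconv (3.50 ± 0.68) and HP1a WT Tconv (3.20 ± 0.84), and these neighbours differed by less than their SD. HP1g WT Tconv with Treg (2.68 ± 0.90) and HP1g KO Tconv (2.67 ± 0.74) were also within their SD of each other.

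Per kb of peak, the Il13 TSS (chr11:53525281-53525770) stayed below the Rad50 and Gata3 starts in Tconv too. In HP1g WT cells its level rose from 0.22 CPM per kb in naive cells to 12.7 in Tconv, while the Rad50 TSS had 22.6 and 23.5 and the wide peak over the Gata3 TSS (chr2:9874991-9885240) 17.7 and 18.5 CPM per kb. Over the 33 libraries kept, the mean log2 CPM of the wide Gata3 peak spanned 0.46 over the 12 groups and that of the Il4 TSS 5.62, and over all 36 libraries 0.88 and 5.62. Over the 12 group means of the libraries kept, the peak among 11344 TSS peaks whose pattern was most like that of the Il4 TSS was that of Il13 (Pearson r = 0.994), followed by Il1rl1 (0.982) and Prr5 (0.979). With all 36 libraries these were Il13 (0.995), Prr5 (0.993) and Ltb4r1 (0.987). For the wide Gata3 peak, the peak shared by Ptgr3 and Tshz1 (0.963) and that of Tmem164 (0.960) were among the 3 most alike in the libraries kept, and Gpr171 (0.988) and the Ptgr3 and Tshz1 peak (0.987) with all 36. These are descriptions over groups that share their conditions and differ in depth.

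**Figure D1:**
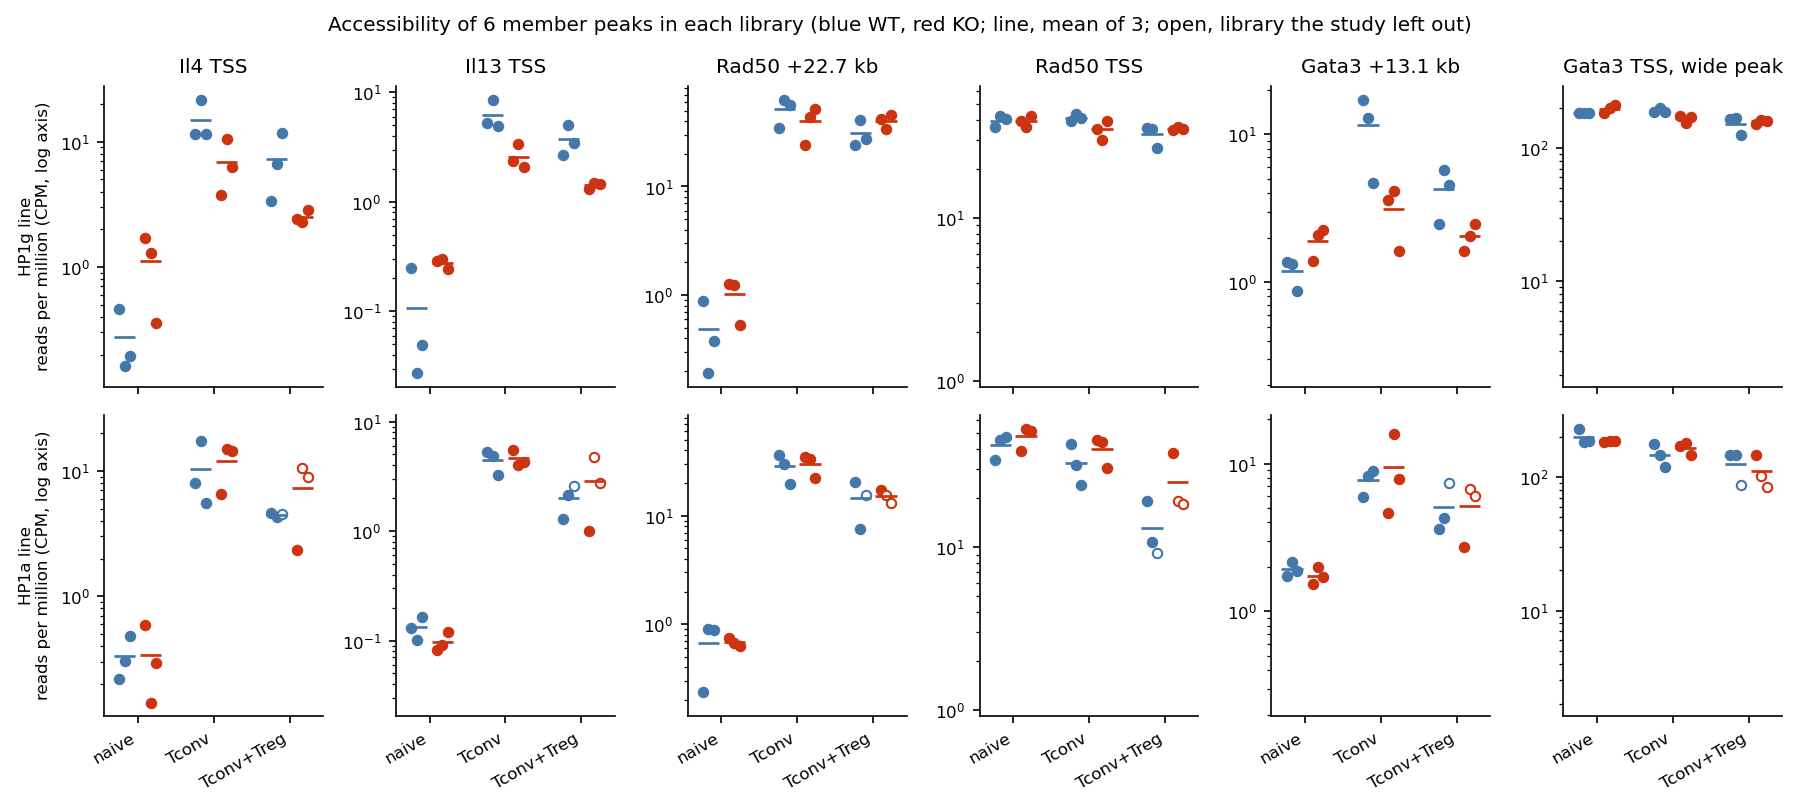
Accessibility in CPM (log axis) in each of the 36 libraries at 6 member peaks, with the HP1g line above and the HP1a line below, WT in blue and KO in red; a line marks the mean of 3 libraries and an open circle a library that the study left out. The Il4 TSS, the Il13 TSS and the Rad50 intron peak lie higher in Tconv than in naive cells in both lines and genotypes, while the Rad50 TSS and the wide Gata3 peak change little between these conditions.

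The first comparison asked which of these regions opened when naive cells became donor-reactive Tconv. In HP1g WT cells, 15 of the 18 locus peaks rose and 0 fell, with a median log2 fold change of 4.71, and 42 of the 70 Gata3 peaks rose and 7 fell, with a median of 1.87. Of all 71508 peaks tested, 24.5% rose and 22% fell, and the median of all peaks was 0.08. A peak was called, or said to rise or fall, where edgeR's quasi-likelihood F test (two-sided) gave an adjusted p below 0.05 together with a log2 fold change beyond 1 in size. The 17 locus peaks other than the Rad50 TSS summed to 37.97 to 44.98 CPM in the 12 naive libraries of both lines. They summed to 223.7, 351.3 and 288.7 CPM in HP1g WT Tconv.

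Within the locus, the largest rises were in the introns of Rad50, the region known for the locus control region. The peak at Rad50 +22.7 kb (chr11:53547031-53549660) had 0.881, 0.19 and 0.379 CPM in HP1g WT naive libraries and 34.2, 63 and 56.3 CPM in Tconv, a log2 fold change of 6.84 (SE 0.46, adjusted p 2.36e-10). Rad50 +17.1 kb rose by 6.68 (SE 0.43). No naive library came near a Tconv library at either peak. The Rad50 TSS had 36, 42.1 and 40.2 CPM in naive cells and 39.3, 43.2 and 41 CPM in Tconv, and its difference of 0.12 had a 95% interval of -0.10 to 0.35. At the Il13 TSS, whose promoter is printed above, naive libraries had 0.247, 0.0271 and 0.0488 CPM (16, 2 and 4 reads) and Tconv 5.23, 8.56 and 4.91 CPM, a log2 fold change of 5.99 (SE 0.42). Il13 +3.2 kb, over a coding exon of Il13, rose by 6.49 (SE 0.52). The Il4 TSS went from 0.464, 0.163 and 0.195 CPM to 11.6, 21.7 and 11.5 CPM, a log2 fold change of 5.87 (SE 0.54). Il5, the eosinophil growth factor gene, had no peak over its start, and the nearest one, at -0.9 kb, rose by 4.69 (SE 0.43). Il5 +14.9 kb and +16.6 kb, which were open in naive cells, differed by 0.46 and 0.68 and were not called.

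At Gata3 the opening lay away from the start. The wide TSS peak had 182, 182 and 182 CPM in HP1g WT naive libraries and 186, 199 and 185 CPM in Tconv, a difference of 0.13 (95% interval -0.06 to 0.31), and the upstream TSS peak (chr2:9892401-9895970) one of 0.11 (-0.15 to 0.37). Of the 9 peaks in the gene or within 10 kb of a start, 4 rose and 0 fell, and of the 61 distal peaks 38 rose and 7 fell. Gata3 +299.4 kb, printed above, rose from 0.386, 0.271 and 0.256 CPM to 15.6, 16.6 and 14.4 CPM, a log2 fold change of 5.75 (SE 0.32, adjusted p 2.31e-11). The largest falls were at Gata3 +196.3 kb (-2.88, SE 0.21), +179.8 kb (-2.56, SE 0.22) and +405.9 kb (-2.31, SE 0.25). At Gata3 +196.3 kb naive libraries had 7.52, 7.64 and 6.48 CPM and Tconv 1.3, 0.602 and 0.821 CPM, so that distal peaks on the same side of the gene moved in opposite directions.

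The locus also opened in the other 3 comparisons of Tconv with naive cells. In HP1g KO cells 14 of 18 locus peaks rose and 0 fell (median 3.03), and 25 Gata3 peaks rose and 8 fell (median 0.77), where 22.4% of all peaks rose and 20.6% fell. The largest rises were at Rad50 +17.1 kb (5.69, SE 0.47), Rad50 +22.7 kb (5.58, SE 0.49) and Gata3 +299.4 kb (4.36, SE 0.38). In HP1a WT cells 14 locus peaks rose and 0 fell (median 4.35), and 38 Gata3 peaks rose and 6 fell (median 1.60), beside 24.9% and 17.5% of all peaks. The largest were at Gata3 +914.7 kb (5.58, SE 0.49), Rad50 +22.7 kb (5.43, SE 0.29) and Il5 +6.1 kb (5.39, SE 0.49). In HP1a KO cells 14 rose and 0 fell in the locus (median 4.17) and 38 rose and 7 fell at Gata3 (median 1.503), beside 23.5% and 19% of all peaks. The largest were at Rad50 +17.1 kb (6.12, SE 0.35), the Il13 TSS (5.58, SE 0.30) and Rad50 +22.7 kb (5.54, SE 0.28). Gata3 +196.3 kb, +179.8 kb and +405.9 kb were the 3 largest falls in each. The Rad50 TSS and both Gata3 TSS peaks were called in none of the 4.

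**Figure D2:**
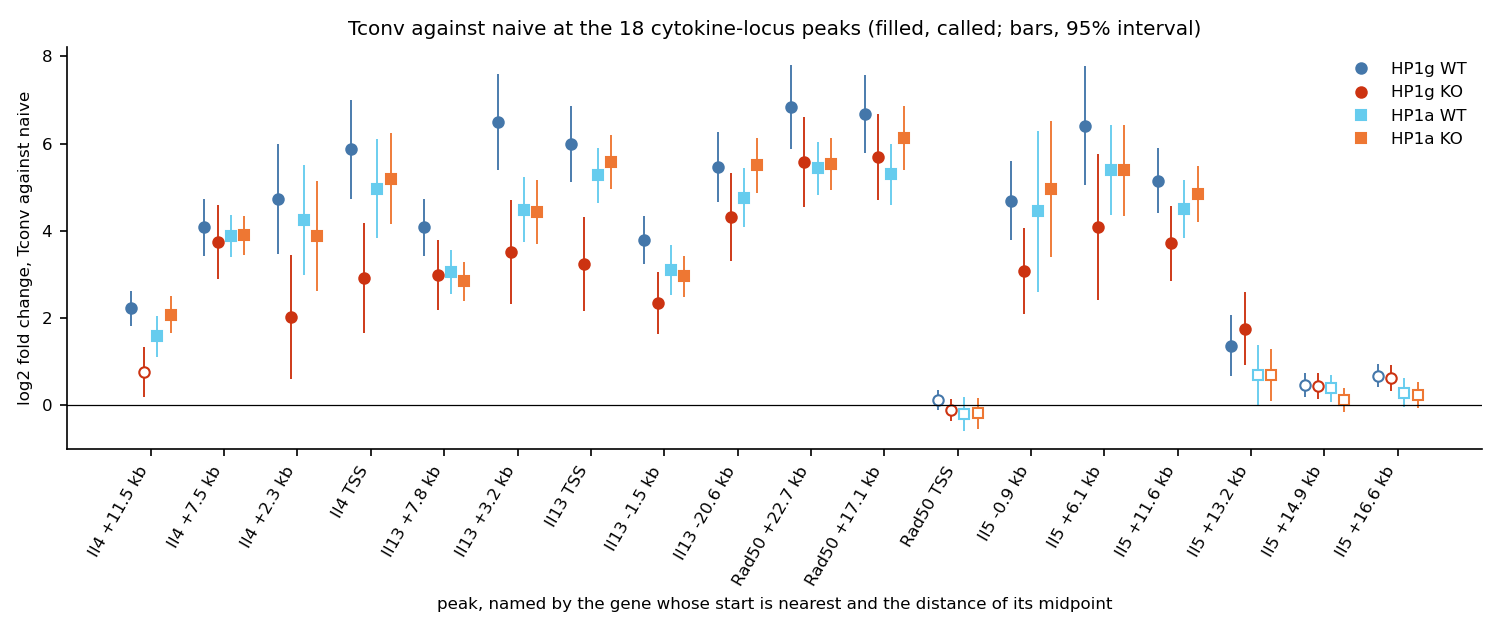
Log2 fold change of Tconv against naive cells (vertical axis) at the 18 cytokine-locus peaks in chromosomal order (horizontal axis), for HP1g WT and KO (circles) and HP1a WT and KO (squares); bars are 95% intervals, and filled symbols are peaks that were called. From Il4 +7.5 kb to Il5 +11.6 kb each peak rose in all 4 groups except the Rad50 TSS, whose intervals include 0.

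The next comparison asked whether HP1g loss altered the same regions in naive cells. Naive HP1g KO and WT cells differed at 0 of the 88 peaks by the edgeR quasi-likelihood F test. By this test 1 of 88 had an unadjusted p under 0.05, beside 6421 of all 71508 peaks. Of all peaks, edgeR called 0.14% in either direction. DESeq2 called 4 member peaks, all higher in KO, and its share of all peaks is not given here, so that this count has no background. The median log2 fold change was 0.61 in the locus and 0.32 at Gata3, beside 0.03 over all peaks. The smallest p was at Gata3 +113.7 kb, with 0.57, 0.435 and 0.545 CPM in KO and 0.355, 0.095 and 0.293 CPM in WT libraries (log2 fold change 1.12, adjusted p 0.537). The KO libraries were all above the WT libraries there. The Il4 TSS held 54, 39 and 26 reads in KO and 30, 12 and 16 reads in WT naive libraries, so that closed chromatin here rests on few reads. WT naive libraries held 70.5 to 90.3 M reads in peaks and KO libraries 32.4 to 82.4 M, and the part of depth in these values was not tested.

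In Tconv without Treg, 13 of the 88 peaks were lower in HP1g KO than in WT and 0 higher, and 4 of the 13 lay at Il4 and Il13 and 9 at Gata3. Of all peaks, 1.69% were called higher and 1.66% lower, so that the lower calls were 4 of 18 and 9 of 70 members beside that share. The median log2 fold change was -0.68 in the locus and -0.50 at Gata3, with 16 of 18 and 63 of 70 below 0, and 0.02 over all peaks. T cell marker sums were 946 to 1120 CPM in KO and 961 to 1200 CPM in WT libraries, and those of the Th1 genes Tbx21, Ifng and Cxcr3 were 204 to 277 and 207 to 291 CPM.

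The smallest p was at Il4 +11.5 kb (chr11:53495961-53497120), in an intron of Il4. It had 16.4, 17.1 and 11.1 CPM in WT and 4.63, 5.71 and 5.06 CPM in KO Tconv, beside 2.82 to 3.55 CPM in the naive libraries of both genotypes. The KO libraries were all below the WT libraries and little above naive cells (log2 fold change -1.55, SE 0.19, adjusted p 0.00015). The Il4 TSS had 11.6, 21.7 and 11.5 CPM in WT and 3.78, 10.6 and 6.27 CPM in KO (-1.19, SE 0.32, adjusted p 0.0364). The Il13 TSS had 5.23, 8.56 and 4.91 CPM in WT and 2.34, 3.36 and 2.07 CPM in KO (-1.32, SE 0.24, adjusted p 0.00299), and neither start overlapped between genotypes. Il13 +3.2 kb was lower by less clear a margin, since its WT range of 9.89 to 24.8 CPM and its KO range of 5.47 to 11.1 CPM overlapped (-1.13, SE 0.29, adjusted p 0.0254). The Rad50 peaks did not pass the test, with 34.2, 63 and 56.3 CPM in WT and 23.9, 43.9 and 51.8 CPM in KO at +22.7 kb and 39.3, 43.2 and 41 CPM against 35.2, 30.2 and 39.3 CPM at the TSS. Neither did those of Il5.

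The 9 Gata3 peaks that were lower in HP1g KO Tconv lay from an intron of Gata3 to far downstream. Gata3 +13.1 kb (chr2:9864611-9866190), in an intron, had 17.1, 12.9 and 4.67 CPM in WT and 3.57, 4.15 and 1.62 CPM in KO (-2.03, SE 0.38, adjusted p 0.00477). The neighbouring intron peak at +11.1 kb was lower by -1.35 (SE 0.36). Gata3 +756.7 kb had 6.26, 4.83 and 1.9 CPM in WT and 1.31, 0.946 and 0.732 CPM in KO (-2.18, SE 0.39), and Gata3 +495.6 kb had 3.16, 3.45 and 1.14 CPM in WT and 1.02, 0.702 and 0.143 CPM in KO (-2.21, SE 0.43). WT and KO did not overlap at these peaks other than +11.1 kb, where 1 KO library exceeded 1 WT library. The other 5 calls were at +505.5 kb (-1.51), +283.5 kb (-1.43), +189.2 kb (-1.13), +89.2 kb (-1.502, with overlapping groups) and +25.2 kb (-1.57). At the wide TSS peak KO libraries had 174, 154 and 171 CPM and WT libraries 186, 199 and 185 CPM (-0.18, adjusted p 0.277), and at the upstream one 32.8, 33.4 and 31 CPM against 40.9, 46.4 and 35.7 CPM (-0.33, adjusted p 0.16).

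The number of members called in Tconv depended on the libraries and the model. It was 5 without WT Tconv replicate 2 and 4 without KO Tconv replicate 3. It was 20 with loess offsets, 7 with DESeq2, 3 with the legacy quasi-likelihood method of edgeR and 1 when only these 2 groups were fitted. No share of all peaks is given for these alternatives. Il4 +11.5 kb was called lower under every alternative run (log2 fold change -1.73 to -1.45).

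**Figure D3:**
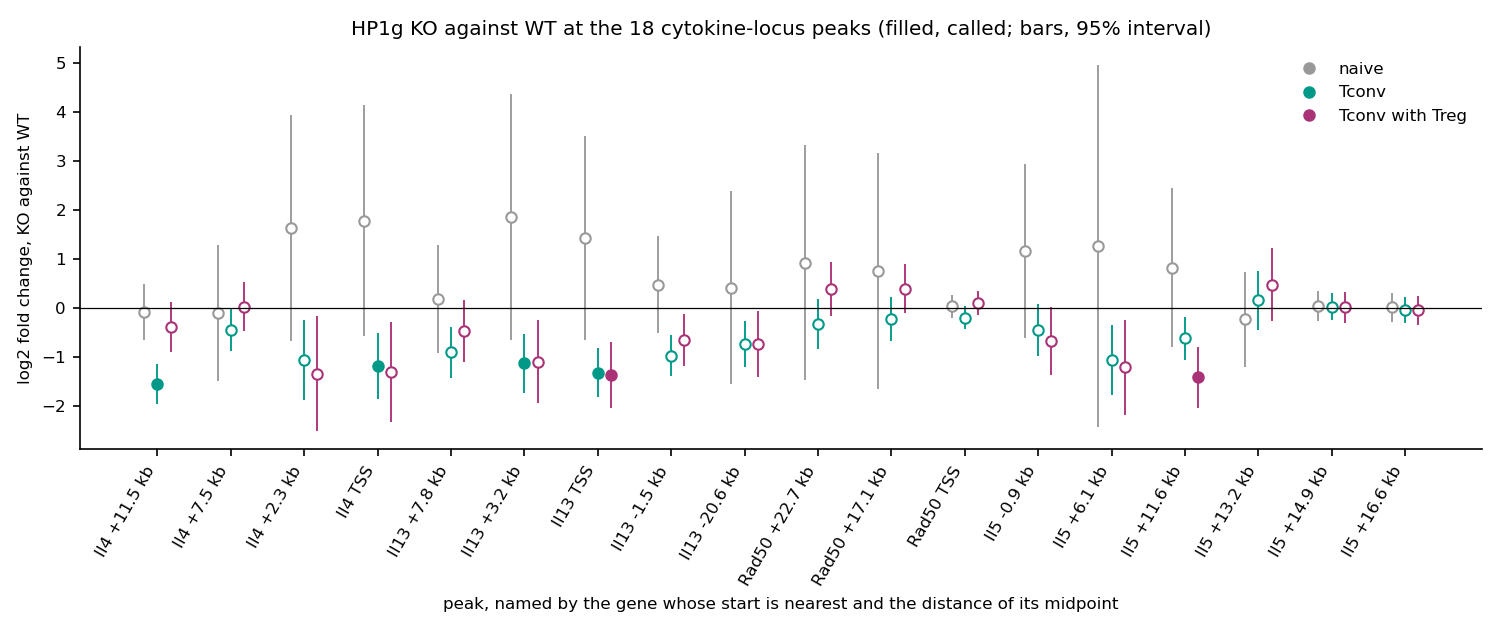
Log2 fold change of HP1g KO against WT (vertical axis) at the 18 cytokine-locus peaks in chromosomal order, in naive cells (grey), Tconv (green) and Tconv with Treg (purple); bars are 95% intervals, and filled symbols are peaks that were called. In naive cells the intervals are wide and include 0, in Tconv the filled peaks are at Il4 and Il13, and with Treg they are the Il13 TSS and Il5 +11.6 kb.

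With Treg, the HP1g KO cells were lower than WT at 2 of the 18 locus peaks and higher at 0, whereas at Gata3 7 peaks were higher and 6 lower. Of all peaks, 6.48% were called higher and 5.38% lower beside the 7 and 8 of 88 members. The higher calls were thus near the share of all peaks, and the split below describes single peaks. The medians were -0.57 in the locus, -0.41 at Gata3 and -0.02 over all peaks. The Pax5 TSS, the B cell marker with a peak, had 8.28 to 11 CPM in KO and 4.03 to 8.43 CPM in WT libraries, and the T cell marker sum 938 to 1010 and 806 to 1010 CPM; their part in the result was not tested.

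In the locus, the Il13 TSS had 2.67, 5.03 and 3.48 CPM in WT and 1.31, 1.48 and 1.46 CPM in KO with Treg (-1.38, SE 0.33, adjusted p 0.00606). Il5 +11.6 kb (chr11:53622821-53623630), between genes, had 4.87, 9.96 and 5.52 CPM in WT and 1.75, 3.14 and 2.85 CPM in KO (-1.42, SE 0.30, adjusted p 0.00325). At both the KO libraries lay below every WT library. The Il4 TSS, with 3.34, 6.67 and 11.7 CPM in WT and 2.42, 2.3 and 2.87 CPM in KO, was not called (-1.32, adjusted p 0.0609). With the replicate number as a block, which pairs these libraries, it was (-1.35). The block gave 21 called members in place of 15, and no share of all peaks is given for it. Rad50 +22.7 kb had 24.2, 40.9 and 27.5 CPM in WT and 41.5, 33.7 and 45.7 CPM in KO and was not called.

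The Gata3 peaks that were higher in HP1g KO with Treg had low levels and lay at +97.4 kb and beyond. Gata3 +1003.4 kb, printed above, had 0.263, 0.199 and 0.19 CPM in WT (13, 8 and 4 reads) and 1.63, 0.65 and 1.84 CPM in KO (96, 37 and 69 reads), with all KO above all WT libraries (2.54, SE 0.53, adjusted p 0.0021). Gata3 +513.5 kb had 0.667, 0.971 and 0.857 CPM in WT and 5.11, 1.3 and 4.12 CPM in KO (2.09, SE 0.49, adjusted p 0.00524). The other 5 were +1002.2 kb (1.65), +97.4 kb (1.495), +717.9 kb (1.40), +208.6 kb (1.22) and +304.2 kb (1.14), the last with overlapping groups. The 6 that were lower were +265.8 kb (-2.20, SE 0.52), +283.5 kb (-2.08, with overlapping groups), +89.2 kb (-1.66), +20.9 kb (-1.40), +189.2 kb (-1.25) and +4.3 kb (-1.21). Gata3 +189.2 kb, the one with most reads among them, had 17.6, 37.9 and 17.8 CPM in WT and 7.67, 12.9 and 10.7 CPM in KO, and with +283.5 kb and +89.2 kb was also lower in KO Tconv without Treg. The wide TSS peak differed by 0.06 (95% interval -0.13 to 0.25).

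The split between higher and lower members with Treg, 7 and 8, was 4 and 12 with library size alone or with DESeq2, 8 and 6 with loess offsets, 9 and 4 with log2 depth as a covariate and 3 and 10 with the legacy method. The shares of all peaks above belong to the main fit alone. Leaving out WT replicate 2, KO replicate 1 or WT replicate 1 gave 3, 5 and 25 called members, while Il5 +11.6 kb (-1.69 to -1.004) and Gata3 +1003.4 kb (2.33 to 2.90) were called under every alternative run.

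**Figure D4:**
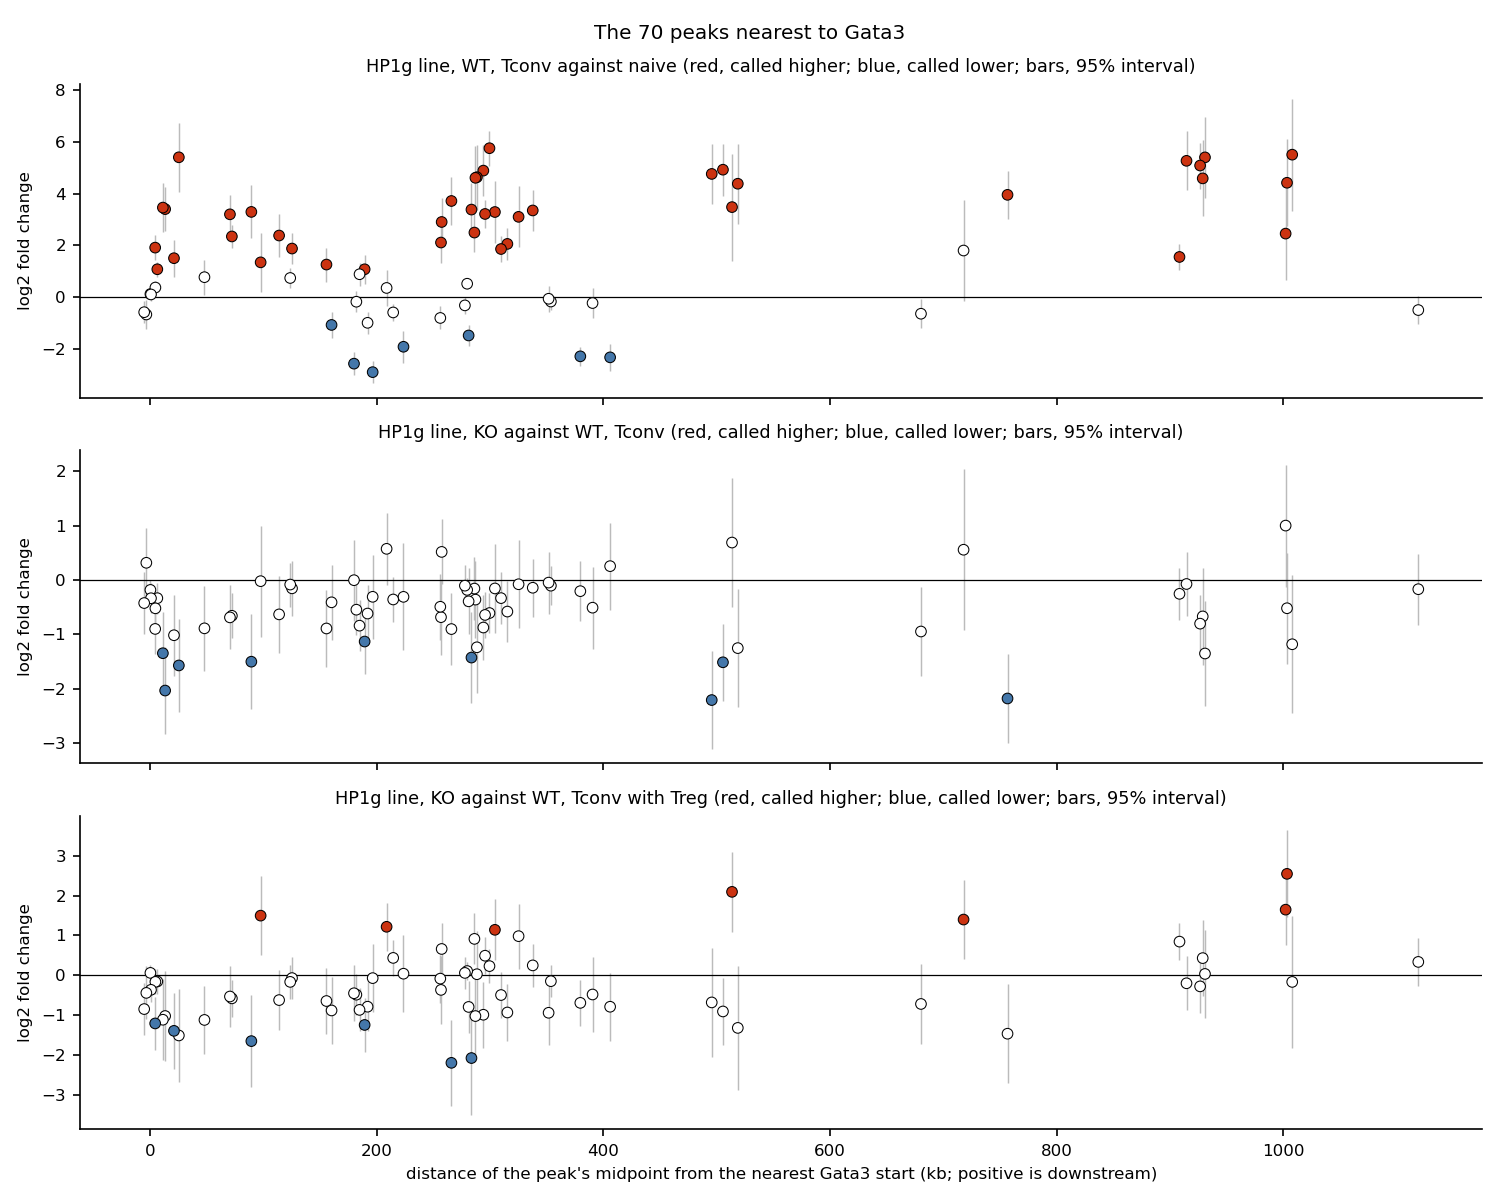
Log2 fold change (vertical axes) of the 70 Gata3 peaks by the distance of their midpoint from the nearest Gata3 start in kb (horizontal axis, positive downstream), for HP1g WT Tconv against naive cells (top), HP1g KO against WT Tconv (middle) and the same with Treg (bottom); red and blue points were called higher and lower, and bars are 95% intervals. Peaks over the start stay near 0 in the top panel while 42 peaks rise and 7 fall, the 9 calls of the middle panel are all lower, and the bottom panel has 7 higher and 6 lower.

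Whether the change from naive cells to Tconv itself differed between HP1g KO and WT was tested with an interaction term. By edgeR 0 of 88 member peaks were called (all peaks, 0.014% in either direction). Its unadjusted p was under 0.05 at 30 of 88 members and at 6803 of all 71508 peaks. DESeq2 called 12 members below 0, for which no share of all peaks is given here. The interaction was below 0 at 17 of 18 locus and 67 of 70 Gata3 peaks, with medians of -1.35 and -0.81, beside -0.03 over all peaks and 46.2% of all peaks above 0. The smallest p was at Il4 +11.5 kb, which differed by -1.47 (SE 0.35, adjusted p 0.222). This comparison uses the naive and Tconv libraries described above and adds no independent samples. Naive KO levels above WT and Tconv KO levels below WT both enter it.

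**Figure D5:**
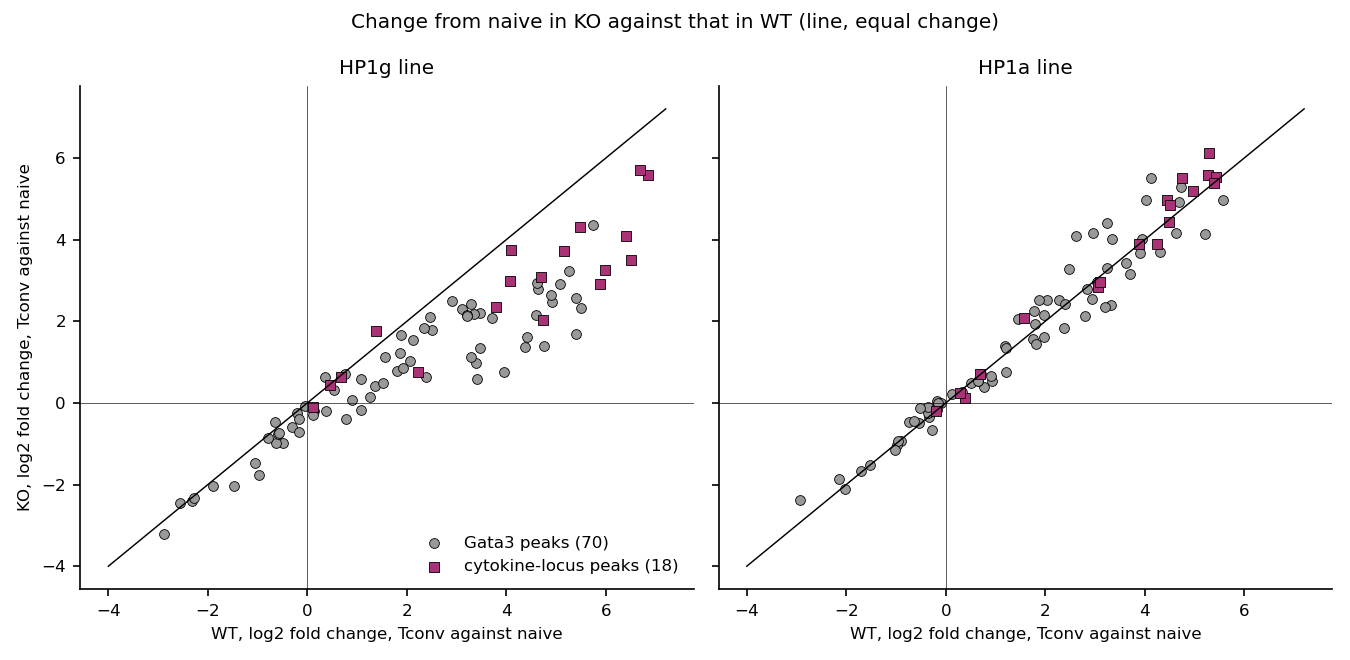
Log2 fold change of Tconv against naive cells in WT (horizontal axis) and KO (vertical axis) at the 70 Gata3 peaks (grey circles) and the 18 cytokine-locus peaks (purple squares), with the HP1g line left and the HP1a line right; the diagonal marks equal change. In the HP1g line most rising peaks lie below the diagonal, with locus medians of 4.71 in WT and 3.03 in KO, and in the HP1a line they lie around it, with medians of 4.35 and 4.17; the difference was not called at any HP1g peak by edgeR and was not tested in the HP1a line.

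The comparison of Tconv with and without Treg asked whether the locus was less open when regulatory cells had been present. In HP1g WT cells 1 member was lower and 0 higher (all peaks, 0.0699% lower and 0.0671% higher): Il4 +11.5 kb had 16.4, 17.1 and 11.1 CPM in Tconv and 4.08, 7.82 and 8.09 CPM with Treg (-1.27, SE 0.20, adjusted p 0.0265), with no overlap. All 18 locus peaks had a log2 fold change below 0 (median -0.73), and 52 of 70 at Gata3 (median -0.38), beside a median of 0.03 over all peaks. With the replicate number as a block, which pairs these libraries, 9 members were lower and 0 higher. The shares of all peaks above are those of the fit without the block, and none is given for it. The count was 11 without WT Treg replicate 2, 4 without WT Tconv replicate 3, and 0 without WT Treg replicate 1 or 3 or WT Tconv replicate 2.

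In HP1g KO cells with Treg, 3 locus and 3 Gata3 peaks were lower and 5 Gata3 peaks higher than in KO Tconv. Of all peaks, 2.06% were lower and 6.1% higher, and the higher calls among the 88 members were near that share. The locus peaks were the Il4 TSS (-1.39, SE 0.46, adjusted p 0.0488), Il13 -20.6 kb, which lies over a coding exon of Rad50 (-1.08, SE 0.29), and Il5 +11.6 kb (-1.43, SE 0.28, adjusted p 0.00272). Medians were -0.65 in the locus, -0.19 at Gata3 and -0.02 over all peaks. The Il4 TSS had 3.78, 10.6 and 6.27 CPM in KO Tconv and 2.42, 2.3 and 2.87 CPM with Treg. The Gata3 peaks were higher at +717.9 kb (1.93), +1003.4 kb (1.64), +513.5 kb (1.51), +1002.2 kb (1.32) and +304.2 kb (1.14), and lower at +265.8 kb (-1.92), +351.6 kb (-1.30) and +4.3 kb (-1.003). These 11 calls fell to 1 without KO Treg replicate 1 and to 4 without KO Tconv replicate 3. The interaction of genotype and Treg in the HP1g line was called at 0 of 88 peaks by edgeR (all peaks, 0.0014% in either direction). Its smallest p was at Gata3 +1003.4 kb (3.06, SE 0.75, adjusted p 0.256). The unadjusted p was under 0.05 at 10 of 88 members and at 9150 of all 71508 peaks, so that the members were near the share of all peaks. DESeq2 called 3 members, for which no share of all peaks is given here.

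The same conditions were compared for the HP1a line. By edgeR 0 of 88 members were called in naive cells (all peaks, 0.00559% in either direction), and 0 by DESeq2. By edgeR the unadjusted p was under 0.05 at 835 of all 71509 peaks and at 1 member. This was Gata3 +223.5 kb, with 0.982, 1.71 and 1.24 CPM in KO and 0.783, 1.04 and 0.922 CPM in WT (0.51, adjusted p 1). By edgeR 0 of 88 were called in Tconv (all peaks, 0.021%), and 0 by DESeq2. The unadjusted p of edgeR was under 0.05 at 6 of 88 members and at 3450 of all 71509 peaks. The smallest p was at Gata3 +518.6 kb, with 0.326, 0.207 and 0.587 CPM in KO and 0.821, 0.781 and 1.42 CPM in WT (-1.43, adjusted p 0.514). At the Il4 TSS, HP1a WT Tconv had 7.98, 17.4 and 5.55 CPM and KO Tconv 6.55, 15.1 and 14.5 CPM. At the Il13 TSS they had 5.26, 4.82 and 3.27 CPM and 5.54, 4 and 4.29 CPM, with overlapping groups at both. At Il4 +11.5 kb they had 9.48, 9.63 and 3.7 CPM and 9.83, 14.1 and 10.5 CPM, with all KO libraries above the WT libraries (0.37, adjusted p 0.999).

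With Treg, 2 Gata3 peaks were lower in the HP1a KO library than in WT and 0 members higher (all peaks, 1.42% lower and 0.218% higher). The median was -0.08 in the locus, -0.22 at Gata3 and -0.11 over all peaks. Gata3 +513.5 kb had 3.38 and 4.28 CPM (45 and 8 reads) in the 2 WT libraries kept and 0.564 CPM (30 reads) in KO (-2.63, SE 0.54). It had 0.431 CPM in the WT library and 2.23 and 1.33 CPM in the KO libraries left out. Gata3 +286.1 kb had 8.86 and 2.14 CPM (118 and 4 reads) in WT and 2.31 CPM (123 reads) in KO, so that WT replicate 1 carried the difference. Without that library 0 members were called, without WT replicate 2 there was 1, and with all 18 HP1a libraries there were 0 (all peaks, 0.741% in either direction). With log2 depth as a covariate, the legacy method or the compared groups alone there were 0 as well. DESeq2 called neither of these peaks, and called 2 others higher in KO, the Rad50 TSS and Il5 +16.6 kb. The T cell marker sum was 899 CPM in the KO library and 504 to 698 CPM in the WT libraries kept, and the Pax5 TSS had 5.21 CPM and 13.3 to 17.1 CPM; their part in these calls was not tested.

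In HP1a cells with Treg against Tconv, 3 locus and 6 Gata3 peaks were lower and 1 Gata3 peak higher in WT (all peaks, 1.84% lower and 4.92% higher), and 5 locus and 1 Gata3 peak were lower in KO (all peaks, 0.284% lower and 0.264% higher). The locus medians were -1.17 in WT and -1.12 in KO, those at Gata3 -0.32 and -0.52, and those of all peaks 0.10 and 0.04. The Il13 TSS was among the lower peaks in both. In WT it had 5.26, 4.82 and 3.27 CPM in Tconv and 1.28 and 2.14 CPM with Treg, the latter from 17 and 4 reads (-1.82, SE 0.45, adjusted p 0.0163). In KO it had 5.54, 4 and 4.29 CPM in Tconv and 0.996 CPM in the library with Treg (-2.21, SE 0.30, adjusted p 0.00147), whereas the KO libraries with Treg that were left out had 4.74 and 2.77 CPM, and with all 18 HP1a libraries the difference was -1.38 (adjusted p 0.011). Il13 -20.6 kb was lower in WT (-1.77) and KO (-2.24), Il5 +16.6 kb in WT (-1.24), and Il4 +11.5 kb (-1.93), Il13 +7.8 kb (-1.73) and Il13 -1.5 kb (-1.58) in KO. At Il13 -20.6 kb KO Tconv had 917, 855 and 224 reads in 78.3, 72.7 and 23.6 M reads in peaks. The KO library with Treg had 122 reads in 50.7 M, and those left out had 64 in 7.12 M and 33 in 5.73 M. At Il13 +7.8 kb KO Tconv had 18.6, 32.4 and 25.9 CPM, the KO library with Treg 7.61 CPM and those left out 20.6 and 19.9 CPM. At Il13 -1.5 kb these were 7.67, 6.02 and 6.64 CPM, then 2.24 CPM, then 6.87 and 5.31 CPM. With all 18 libraries neither was called (-1.05, adjusted p 0.0706, and -0.996, adjusted p 0.0607), and Il4 +11.5 kb was (-1.56). At Gata3, +513.5 kb was higher in WT (2.08), +25.2 kb (-2.43), +505.5 kb (-1.53), +72.0 kb (-1.37), +189.2 kb (-1.31), +184.7 kb (-1.16) and +191.8 kb (-1.04) lower in WT, and +505.5 kb lower in KO (-1.29). At Gata3 +25.2 kb the WT libraries with Treg had 1.2 CPM and 0 reads, which in that library of 1.49 M reads allows up to 1.603 CPM (3 reads, counting error only). The WT library with Treg that was left out had 26 reads there in 3.2 M reads in peaks. WT Tconv had 442, 114 and 46 reads in 74.4, 19.7 and 6.2 M, so that the fall rests on the libraries kept. The T cell marker sum was 504 to 698 CPM in the HP1a WT libraries with Treg that were kept and 668 to 964 CPM in WT Tconv, and the Pax5 TSS had 13.3 to 17.1 and 4.55 to 6.29 CPM, and their part in these results was not tested. The WT calls were 0 without WT Tconv replicate 1 and 0 without WT Treg replicate 1, and 1 with log2 depth as a covariate. Those in KO, which rest on 1 library with Treg, were 0 with the legacy method and 0 with the compared groups alone, 10 with all 18 libraries and 14 without KO Tconv replicate 1. The interaction of genotype and Treg was called by edgeR at 0 of 88 peaks (all peaks, 0.0461% in either direction; 12 of 88 at an unadjusted p under 0.05; 0 by DESeq2), with the smallest p at Gata3 +286.1 kb (-1.87, SE 0.46, adjusted p 0.171).

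Other genes of the Th2 programme were counted from a list of 27, of which 26 had 402 peaks among them. In HP1g KO against WT Tconv 7 of the 402 were higher and 23 lower, and with Treg 23 were higher and 40 lower, while 0 were called in naive cells, beside the shares of all peaks above. The 77 peaks of the 8 receptor and surface genes had most of the lower calls, with 0 higher and 15 lower in Tconv (median -0.44) and 3 higher and 21 lower with Treg (median -0.64). Il1rl1, which encodes the IL-33 receptor, had 8 of 20 peaks lower in each, Ccr4, a chemokine receptor of Th2 cells, 4 and 3 of 17, and Ptgdr2, the prostaglandin D2 receptor CRTH2, 2 of 3 lower with Treg. The 303 peaks of the 14 transcription factor and signalling genes had 6 higher and 6 lower in Tconv and 17 higher and 17 lower with Treg, and the 22 peaks of the 4 secreted factors with a peak 1 and 2, then 3 and 2. Peaks are given to the nearest gene here too, however far it is. The lower peaks of smallest p were those of Il6 (-2.66, SE 0.44) and Il1rl1 (-2.60, SE 0.41) in Tconv and Gfi1 (-1.48, SE 0.22) and Ptgdr2 (-1.99, SE 0.33) with Treg. The higher ones were Batf (1.16, SE 0.21) and Sox4 (1.09, SE 0.22) in Tconv, and Il6 (2.28, SE 0.29) and Nfil3 (1.68, SE 0.22) with Treg, so that Il6 had peaks in both directions. In the HP1a line, KO against WT, the list had 0 calls in naive cells, 1 higher in Tconv and 1 higher and 6 lower with Treg, where 0.218% of all peaks were higher and 1.42% lower, so that the lower share of the 402 was near that of all peaks. With all 18 HP1a libraries 0 of the list were higher and 3 lower with Treg.

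The genes that flank the members, with 37 peaks of 5 genes, gave a measure of the regions around them. In HP1g KO against WT, 2 of the 37 were lower in Tconv, both of Taf3, the neighbour of Gata3 (-1.35, SE 0.29, and -1.39, SE 0.36), and 3 were lower with Treg, 2 of the 3 peaks of Septin8 and 1 of the 18 of Irf1, with 0 higher in either. Of all peaks, 1.66% were called lower in Tconv and 5.38% with Treg. The median of the 37 was -0.22 in Tconv and -0.31 with Treg, on the same side of 0 as those of the locus (-0.68 and -0.57) and of Gata3 (-0.50 and -0.41), and 0.06 in naive cells. From naive cells to Tconv 11 of the 37 rose and 6 fell in HP1g WT cells, where 24.5% of all peaks rose and 22% fell, with a median of 0.18 beside 4.71 in the cytokine locus.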

How the data were processed

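The authors trimmed reads with Trim Galore 0.6.7, aligned them to GRCm39 with BWA, marked duplicates, called peaks per sample with HMMRATAC, merged these and counted reads per merged peak with featureCounts 2.0.3. The deposited values are counts, not normalized, of merged peaks in 36 libraries; 3 peaks of no width were left out, which leaves 71509. Counts were tested with edgeR 4.0.16 (R 4.3.3; filterByExpr, TMM, quasi-likelihood F test, Benjamini-Hochberg over all peaks), with 1 fit per line, 18 HP1g and 15 HP1a libraries. Printed CPM are counts per 1000000 reads in peaks with library sizes scaled by TMM over the 36 libraries (factors 0.8304 to 1.451), whereas log2 fold changes come from TMM within each fit; log2 CPM used a prior count of 2. Likeness over the 33 libraries kept was added after seeing the data. Differences are first group minus second. Scripts were tested on simulated data.

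The members, gene lists and rules were chosen with earlier results of these data known. Named were the peaks over the starts, all members called for genotype or Treg, the 3 largest called changes per direction for Tconv against naive, the smallest p where none was called, and 2 peaks per direction of the Th2 list. Alternatives were library size, loess offsets (span 0.3), a depth covariate, no filter, DESeq2 1.42.0, the legacy edgeR method (added after seeing the data), the compared groups alone, all HP1a libraries, the replicate block and leaving out each library. The replicate numbers were taken to pair libraries where all 3 correlations of same-numbered deviations exceeded 0.1, which was so for HP1g KO and WT with Treg (0.28, 0.15 and 0.32), HP1g WT with and without Treg (0.29, 0.20 and 0.23) and HP1a naive cells (0.50, 0.25 and 0.27), although no label explains the numbers. Of the other marker lists, 3 of 5 myeloid genes had a start-site peak, 1 of 2 CD8, 1 of 3 NK and 3 of 3 Treg genes. Some genes of the marker lists and of the likeness ranking are not reported here.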

Additional observations from a re-analysis of the deposited data

Results flagged for a closer look

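The peak at Gata3 +513.5 kb (chr2:9364791-9365240) had log2 fold changes of opposite sign for KO against WT in the 2 lines in Tconv with Treg. It was higher in HP1g KO than in WT cells by 2.09 on the log2 scale (3 libraries each, KO above WT in every library) and lower in HP1a KO than in WT cells by a log2 fold change of -2.63 (1 KO library below both WT libraries kept). The difference between the lines was not tested, since they were fitted apart. In the HP1a line the WT library and the KO libraries that the study left out had 0.431 CPM, and 2.23 and 1.33 CPM, so that all 3 libraries per group overlap. The HP1a peak was not called with all 18 libraries, the depth covariate, the legacy method, the compared groups alone or DESeq2, nor without either WT library. The HP1g peak was not called with the compared groups alone (2.09) or without KO replicate 1 (1.61).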

How the results depend on the processing

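Members called for HP1g KO against WT in naive cells were 0, with 4 under DESeq2 and 2 when the compared groups were fitted alone; in Tconv 13, with 20 (loess), 3 (legacy), 7 (DESeq2) and 1 (groups alone); with Treg 15, with 4 (groups alone). For Treg against Tconv, HP1g WT had 1, with 5 (loess), 0 (depth covariate), 5 (DESeq2), 0 (groups alone), 9 (replicate block) and 17 (block and depth covariate). HP1g KO had 11, with 7 (loess), 4 (legacy), 6 (DESeq2) and 0 (groups alone). The interactions in the HP1g line had 0, with 3 for Treg and 12 for activation under DESeq2 and 1 for activation with block and depth. HP1a KO against WT with Treg had 2, and 0 under the depth covariate, the legacy method, all 18 libraries or the groups alone; DESeq2 also gave 2, but other peaks, both higher. HP1a Treg against Tconv had 10 in WT, with 1 (depth), 5 (groups alone) and 0 (block and depth), and 6 in KO, with 0 (legacy), 10 (all libraries) and 0 (groups alone). The cause was not tested. In this section no share of all peaks stands beside the alternative counts. Whether the members or all peaks gained or lost calls cannot be told from them.

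Leaving out 1 library gave, for KO against WT in the HP1g line, 0 to 0 in naive cells, 4 to 18 in Tconv and 3 to 25 with Treg, and in the HP1a line 0 to 0, 0 to 0 and 0 to 1. It gave 0 to 11 and 1 to 14 for Treg against Tconv in HP1g WT and KO, 0 to 11 and 7 to 14 in HP1a WT and KO, 62 to 64 and 40 to 49 for Tconv against naive in HP1g WT and KO, 56 to 59 and 57 to 60 in HP1a WT and KO, 0 to 1 and 0 to 3 for the HP1g interactions with Treg and activation, and 0 to 0 for the HP1a interaction. Of single peaks, Gata3 +286.1 kb for HP1a KO against WT with Treg turned to 0.18 without HP1a WT replicate 1 with Treg and was -1.83 without replicate 2. A stricter assignment, to gene bodies and 10 kb of a TSS, keeps 23 of the 88 peaks. The replicate block changed no other count by over 1.5 times; for HP1a KO against WT with Treg no block could be fitted. The naive state of the cytokine starts rests on few reads, in naive libraries that held 32.4 to 96.8 M reads in peaks. Depth limits HP1a cells with Treg, whose smallest library held 1.49 M reads in peaks.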
